A study of Xenopus tropicalis with 39 samples.

Results

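The animal lineage of the Xenopus tropicalis embryo was followed from the 8-cell stage to the early gastrula by setting uninjected animal caps against 8-cell animal blastomeres. The libraries were chosen by label and column name, and they are 5 of the 39 samples of the series and 5 of its 33 RNA libraries. The caps (n = 2) were explants of prospective ectoderm cut from embryos at stage 9 (6 hours after fertilization), whose RNA was taken at stage 10.5 (7 hours), and they were the uninjected controls of an experiment in which vegt and otx1 RNA were injected. The animal blastomeres (n = 3) were the upper cells of embryos at the 8-cell stage, with no injection. The study also sequenced 14 libraries of injected caps, 3 of 8-cell vegetal blastomeres, 3 of whole 8-cell embryos and 8 of vegetal masses, explants of prospective endoderm that were uninjected or carried a Vegt, an Otx1 or both morpholinos (antisense oligomers that block their target). Eggs were fertilized in vitro, no strain is named, and the labels say that blastomeres were taken from the same clutch without saying whether replicates shared one. Replicates are described by the submitters as biological, in triplicate at the 8-cell stage and in duplicate for explants.

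A frog egg is loaded with maternal RNA, and the early cell divisions run on it without transcription from the embryo's own genome. Around the mid-blastula transition the zygotic genome is switched on and many maternal RNAs are degraded, in part after losing their polyA tails. Cells of the animal pole form the ectoderm, which gives rise to epidermis and the nervous system, and a cap explanted from an uninjected embryo follows the epidermal path.

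Caps and blastomeres came from separate experiments, so stage, explant culture and experiment cannot be told apart, and for that reason only large differences were counted. A feature was called when the fitted difference was 4-fold or more, the values of all caps lay outside the range of the blastomeres, and the adjusted p of edgeR's quasi-likelihood test was under 0.05 over all features tested. PolyA RNA was measured, so the amount of an RNA and the length of its polyA tail cannot be told apart either, nor can fewer cells of a type and less RNA per cell. Levels are given as TPM, which is scaled for length, and read density as CPM (counts scaled to the size of the library).

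The files name 32234 features, of which 26550 are gene models and 5684 are models of long non-coding RNA (lncRNA). They pair none of them with a gene symbol, and 0 of the identifiers matched the 28858 genes of the reference table. Ectoderm, endoderm, mesoderm and germ plasm markers could therefore not be read, the labelled tissues were not checked against them, and features are described by class, level and behaviour, with few identifiers. Total estimated counts were 15856723 and 12230568 in the caps and between 13555066 and 17210721 in the animal blastomeres. Caps had 20639 and 20455 features with at least 1 count, against 15738 to 18099 in the animal blastomeres. Replicates of a group correlated with r between 0.917 and 0.932 (log2 CPM over 11070 features, which are not independent). Of the libraries used for comparison, vegetal blastomere replicate 3 stood apart, with 15.3% of its TPM in its top 10 features, against 7.78% and 7.05% in the other vegetal blastomere libraries, and with the fewest counts of the 3 (9005402). Animal blastomere replicate 1 also had a larger top 10 share, at 12.2%, against 7.1% and 7.4% in the other animal blastomere libraries. In it lncRNA models held 4.25% of TPM, against 2.34% and 2.29%. Without it 1951 higher and 1138 lower features were called.

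More features were higher in caps than lower, and the higher ones differed by larger folds. Of 14986 features tested, 3040 (20.3%) passed the rule for a large difference. Of these, 1849 (12.3% of those tested) were higher in caps and 1191 (7.95%) were lower. A further 6591 features (44.0%) differed less than 2-fold, and the median log2 fold change of all features was 0.11. By the adjusted p alone, 2767 features were higher and 2259 lower in caps. Without cap replicate 2 the rule gave 1156 higher and 921 lower features, and without cap replicate 1 it gave 1305 and 1306, so the count of higher features rests on both caps.

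**Figure D1:**
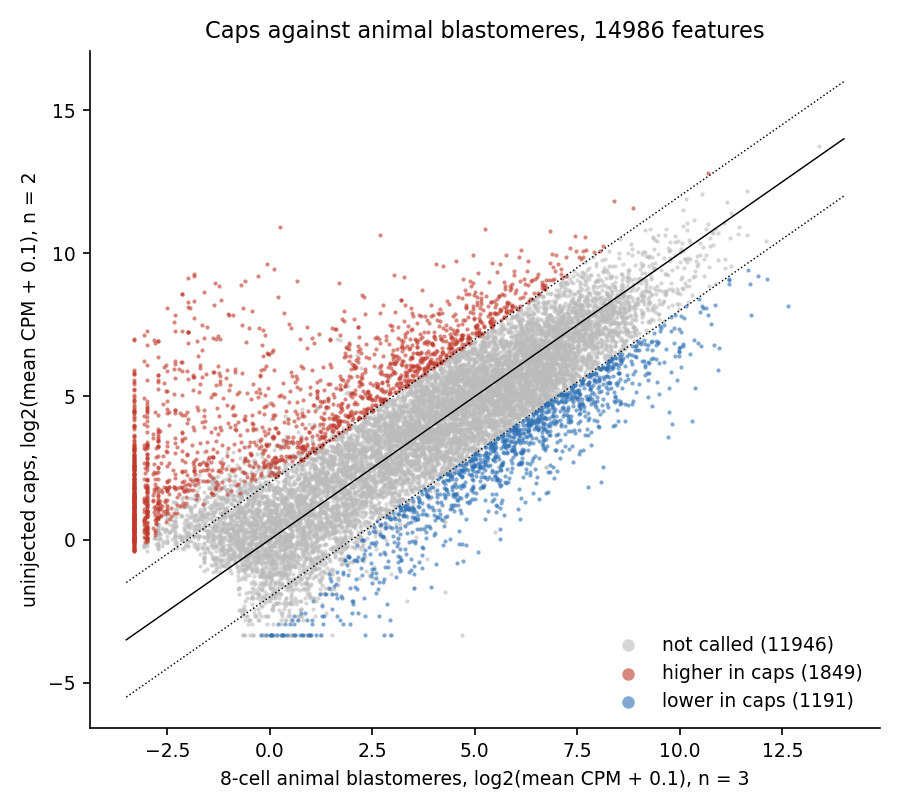
Mean CPM of each of the 14986 tested features in uninjected caps (vertical axis, n = 2) and in 8-cell animal blastomeres (horizontal axis, n = 3), both as log2(CPM + 0.1), with the line of equality solid and 4-fold differences dotted. The 1849 features higher in caps reach far to the left, to features without counts in blastomeres, while most of the 1191 lower features run close below the 4-fold line.

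The features higher in caps had a median log2 fold change of 4.25 (quartiles 2.72 and 6.95), or 4.02 when features without counts in blastomeres were set to the smallest fold that 3 counts over the group allow. Of the 1849, 1257 (68.0%) differed 8-fold or more and 771 (41.7%) differed 32-fold or more. The features lower in caps had a median log2 fold change of -2.74 (quartiles -2.31 and -3.45), with 463 of 1191 (38.9%) past 8-fold and 70 (5.88%) past 32-fold. The direction and the 4-fold minimum are set by the rule, so these values describe the lists. On either side the threshold cut through a dense part of the distribution: 155 higher features lay within 0.2 log2 units above the minimum and 178 features lay as close below it, and the same counts for lower features were 201 inside and 199 outside.

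Loss was seldom complete. Only 25 of the 1191 lower features (2.1%) had no counts in either cap, and 107 (8.98%) had some counts but under 1 TPM. Of all 14986 features tested 55 (0.367%) had no counts in either cap. The lower features were chosen for low values in these same caps, so their larger share is partly set by the rule. Another 465 of the lower features (39.0%) were still at 1 to 10 TPM, and 594 (49.9%) were still at 10 TPM or more. The median level of the lower features was 9.97 TPM in caps and 64.5 TPM in animal blastomeres. Most of them were thus abundant RNAs of the early embryo that remained detectable in the stage 10.5 cap. In this they were like the tested features in general: 88.9% of the lower and 89.5% of all tested features reached 1 TPM in caps. Both shares are read from the cap values that gave the calls.

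Gain came from 2 kinds of starting level. Of the 1849 higher features, 317 (17.1%) had no counts in any animal blastomere library and 658 (35.6%) were above 0 but under 1 TPM there. The other 874 were already present, 532 (28.8%) at 1 to 10 TPM and 342 (18.5%) at 10 TPM or more. The features without counts in blastomeres were of modest level in caps, with a median of 5.13 TPM. The 342 that started at 10 TPM or more had a median of 164 TPM in caps, and they alone held 10.8% and 11% of the TPM of the 2 caps, against 1.33%, 1.39% and 1.5% in the 3 animal blastomere libraries. By level, though not by number, features already at 10 TPM or more at the 8-cell stage were the larger part of the list. A call needs a 4-fold rise, so a feature that starts high must be far higher in caps. One that starts at 0 needs only enough counts in caps to be tested, and all 317 tested features of this kind were called higher. This order of levels is thus partly set by the filter and the rule. Of all features tested 81.5% reached 1 TPM in animal blastomeres, against 47.3% of the higher features. The rule chose the higher features for low blastomere values, so that gap is partly set by it too. Over all 9 libraries of the 8-cell experiment, 125 of the 1849 (6.76%) had no count at all, and 34 of these reached 10 TPM in caps, the highest at 142 TPM.

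Summed over each list, the higher features made up 18.5% and 19.6% of the TPM in the caps, and 1.58%, 1.62% and 1.75% in the animal blastomeres. The lower features made up 4.54% and 3.46% in the caps, against 27.1%, 24.3% and 24.8% in the animal blastomeres. Features that were not called held 76.5% of the TPM in both caps and between 71.1% and 73.9% in the blastomeres. TPM is a share of the library, and the total RNA per cell was not measured.

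**Figure D2:**
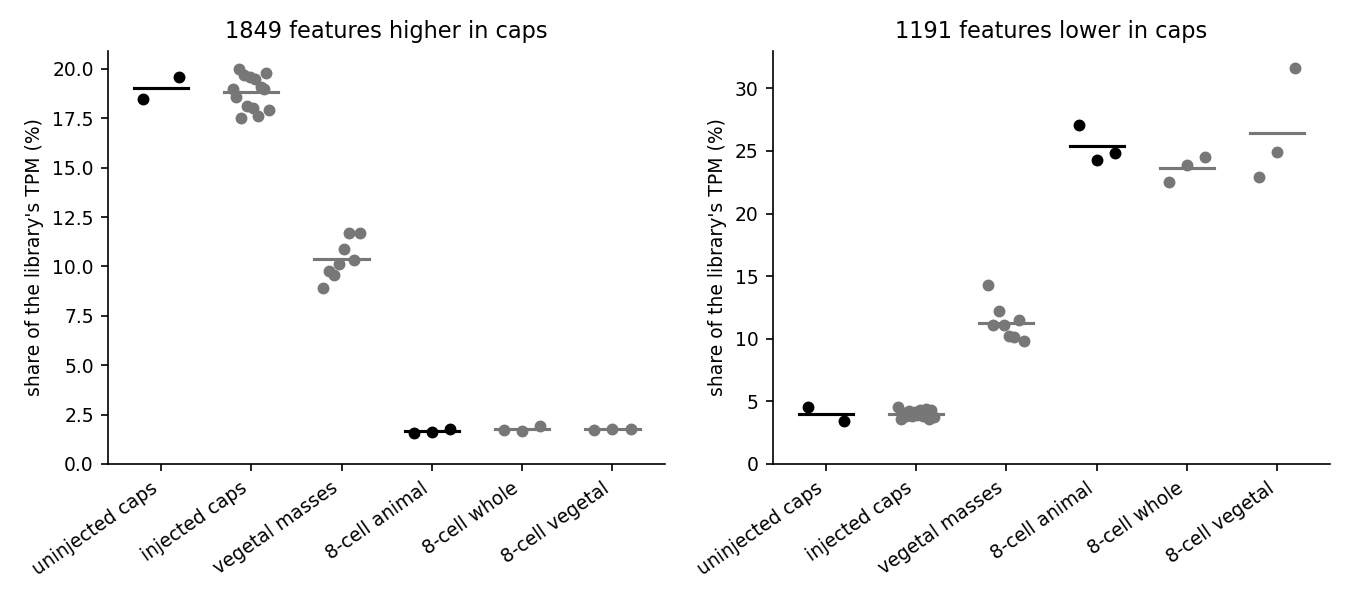
Share of each library's TPM held by the 1849 features higher in caps (left) and the 1191 lower in caps (right), 1 point per library with the group mean as a line and the libraries of the comparison in black. Injected caps lie with the uninjected caps, whole embryos and vegetal blastomeres with the animal blastomeres, and vegetal masses in between, at 8.91% to 11.7% for the higher and 9.83% to 14.3% for the lower features.

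The share of features lower in caps was larger at higher maternal levels. Among features at 10 to 100 TPM in animal blastomeres 10.2% were called lower, among those at 100 to 1000 TPM 19.4%, and among the 109 features at 1000 TPM or more 41 (37.6%). At 1 to 10 TPM the share was 3.46%. Higher features ran the opposite way, with 82.0% of the 728 tested features under 0.1 TPM in blastomeres, 13.0% at 1 to 10 TPM and 5.48% at 10 to 100 TPM. A feature near 0 in blastomeres is tested mainly if caps hold counts for it, so the highest of these shares is partly set by the filter. The split by level uses the same blastomere values as the fold change, and neither trend was tested.

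**Figure D3:**
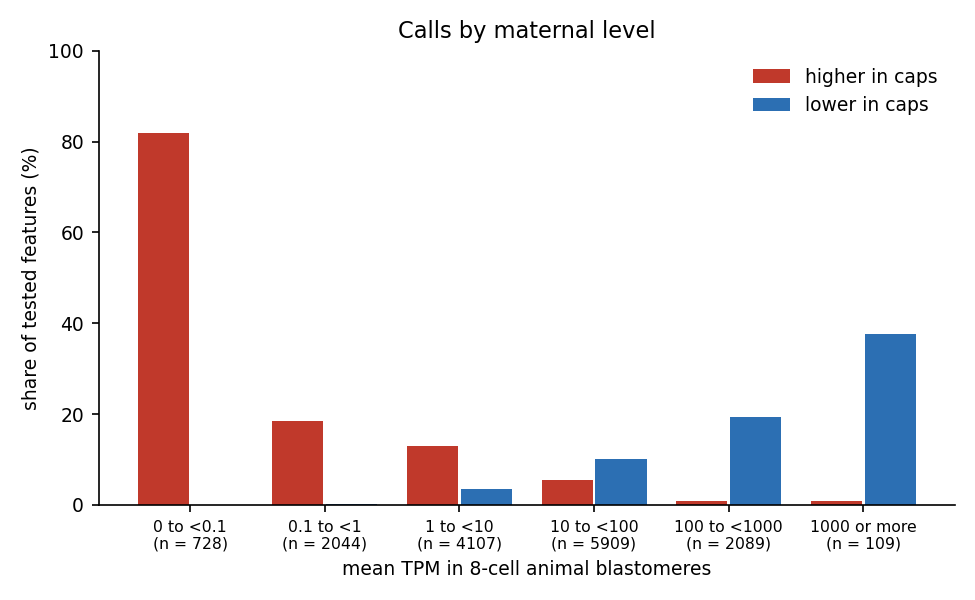
Share of tested features (vertical axis, percent) called higher or lower in caps, by mean TPM in 8-cell animal blastomeres (horizontal axis, number of tested features below each class). The lower share climbs to 37.6% at 1000 TPM or more, while the higher share is greatest, at 82.0%, under 0.1 TPM.

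The ranking of the most abundant RNAs differed between the stages. Of the 100 features with the most TPM in animal blastomeres, 44 were also among the top 100 in caps. The 8-cell top 100 held 37 features that were called lower in caps, 1 that was called higher and 40 that differed less than 2-fold. The cap top 100 held 25 features that were called higher and 2 that were called lower. Among the top 1000 of each stage 516 were shared, 225 of the 8-cell top 1000 were lower in caps and 207 of the cap top 1000 were higher. Over all features tested 7.95% were lower in caps, 12.3% were higher and 44.0% differed less than 2-fold. The top features were ranked by the same levels that enter the fold change. An excess of lower features in the 8-cell top and of higher ones in the cap top is therefore partly set by the ranking, and it was not tested.

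Long non-coding RNA models were found in both lists, and no test was made of their share. They were 342 of the 1849 higher features (18.5%) and 76 of the 1191 lower ones (6.38%), where they made up 13.4% of the features tested. Of 2009 lncRNA models tested 17% were higher in caps and 3.78% lower, and of 12977 gene models 11.6% were higher and 8.59% lower. The lncRNA models that rose were mostly scarce, with a median of 4.05 TPM in caps, against 35.5 TPM for the gene models that rose. Features were also grouped by the greater of their mean TPM in caps and in animal blastomeres, the libraries that gave the calls. At 10 to 100 TPM 29.0% of 269 lncRNA models and 11.4% of 6381 gene models were higher, and 12.3% and 8.89% were lower. At 1 to 10 TPM 17.8% of lncRNA models and 12.3% of gene models were higher, and 3.01% and 3.52% were lower. Without cap replicate 1 there were 160 higher and 37 lower lncRNA models, and without cap replicate 2 there were 114 and 36. Counting with strand is not stated, so reads of an lncRNA and of a gene that overlaps it cannot be told apart.

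The ratio of counts to TPM gives an effective length for each feature, relative to the median feature. The median was 1.05 for higher, 0.90 for lower and 1.00 for uncalled features, and 98.8% of tested features had a value. The median SD between replicates in log2 CPM was 0.47 in caps and 0.47 in blastomeres for the higher features, 0.48 and 0.36 for the lower ones, and 0.40 and 0.45 for all features tested.

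Among the higher features the gene model Xetrov90001544m.g had the most RNA in caps. It was at 8995 and 6333 TPM in caps, against 1439, 1727 and 1423 TPM in animal blastomeres. Both caps lay above all 3 blastomere libraries, with a log2 fold change of 2.13 (SE 0.31, adjusted p = 0.0019, edgeR). This feature thus had a large share of polyA RNA in animal blastomeres and a still larger share in caps. In uninjected masses it was at 1470 and 1726 TPM, against 1602, 1385 and 814 TPM in vegetal blastomeres, a log2 fold change of 0.04 (SE 0.45, edgeR adjusted p = 0.97). The 14 injected caps ranged from 4534 to 10252 TPM with a median of 6912 TPM, all above the 8 masses, which ranged from 1216 to 2250 TPM.

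The feature with the largest fitted gain was lncrna_single_sw_00235051. It was at 149 and 227 TPM in caps and had no counts in the 3 animal blastomere libraries. Against a floor of 3 counts over the group this is at least 1872-fold higher (log2 10.87; edgeR adjusted p = 0.00029). It was also found at 3.92 and 13.7 TPM in uninjected masses, against 0.25, 0.49 and 0 TPM in vegetal blastomeres, a difference that did not pass the test (4.79 log2 units, SE 1.93, edgeR adjusted p = 0.15). The 14 injected caps held 69.5 to 230 TPM of it (median 148), all above the highest of the 8 masses, at 21.4 TPM.

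The lower feature with the most maternal RNA was Xetrov90016336m.g, which had the greatest mean TPM of the lower features in animal blastomeres. It was at 4514 and 6980 TPM in caps, against 42016, 18772 and 29810 TPM in the blastomeres. The groups did not overlap, though the blastomere libraries differed among themselves more than 2-fold. Whole 8-cell embryos held less of it, at 14711, 13951 and 20572 TPM. Their mean of 16411 TPM was below those of both animal (30199 TPM) and vegetal blastomeres (39009 TPM), and the cause was not tested. The size of the loss thus depends on which 8-cell libraries are used. The 14 injected caps held 5164 to 7555 TPM. The log2 fold change was -2.69 (SE 0.51, adjusted p = 0.0059, edgeR). Without animal blastomere replicate 1, the highest of the 3, it was -2.31 (SE 0.50, adjusted p = 0.017, edgeR). In masses it was at 14036 and 8573 TPM, against 20423, 26098 and 70505 TPM in vegetal blastomeres, of which the last is the library that stands apart. That change was -2.25 (SE 0.66) and missed the threshold (edgeR adjusted p = 0.077).

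A near-complete loss was seen for lncrna-candidate-sw-51851. It had no counts in either cap and was at 11.9, 18.4 and 27.3 TPM in animal blastomeres, so it was at least 77-fold lower in caps against the same floor (log2 bound 6.28 in size; edgeR adjusted p = 0.0016). Of the 14 injected caps the highest held 0.97 TPM and the median was 0. Masses held 0 and 2.73 TPM, against 12.5, 40.5 and 9.71 TPM in vegetal blastomeres. That difference was -4.06 (SE 2.03, edgeR adjusted p = 0.25) and did not pass the test.

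**Figure D4:**
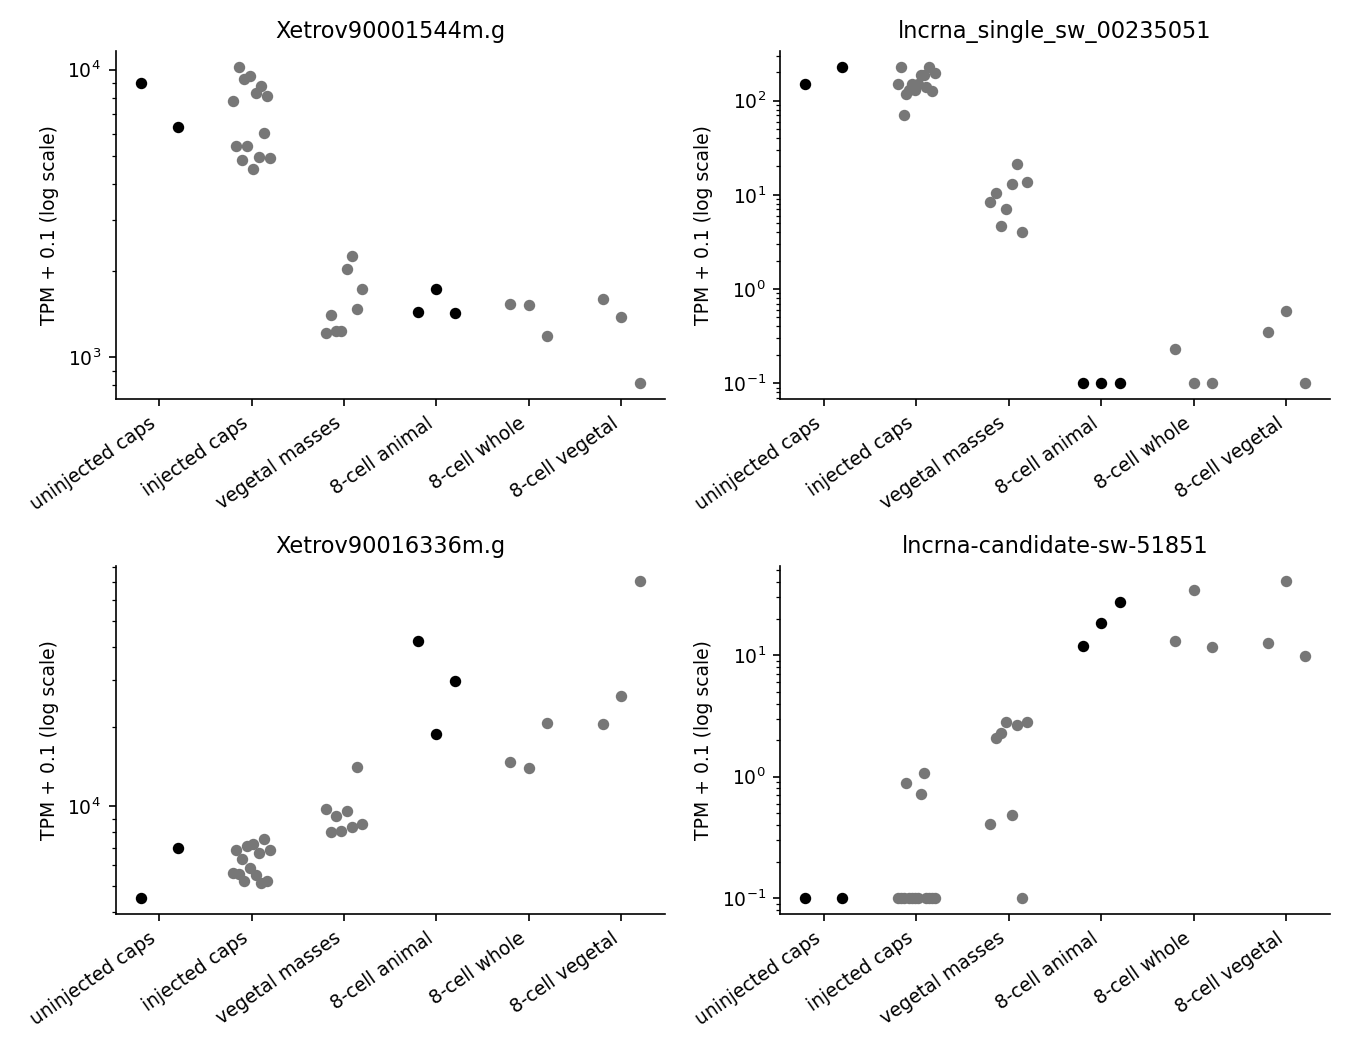
TPM + 0.1 on a log axis of the 4 named features in every RNA library, by group, with the libraries of the comparison in black. The 2 features higher in caps (top row) are high in all caps, and the 2 lower features (bottom row) are highest in the 8-cell libraries. Xetrov90001544m.g in masses lies within the range of the 8-cell libraries or slightly above it.

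The same differences were looked for in libraries that the rule did not use, by setting the 14 injected caps against the 3 whole 8-cell embryos. Injection adds vegt or vegt and otx1 RNA and whole embryos add vegetal cells, so this is the same pair of stages in other tissue states, from the same 2 experiments. The 14 injected caps carry only the replicate numbers 1 and 2, as the uninjected caps do. Their levels went with the number: the lower features held 4.10% to 4.52% of TPM in number 1 and 3.60% to 3.88% in number 2. They are therefore not 14 independent replicates. Of the 1849 higher features 1847 had the higher mean in injected caps, and 1620 (87.6%) were at least 4-fold higher with no overlap between the 17 libraries. Of the 1191 lower features all had the lower mean, and 991 (83.2%) were at least 4-fold lower with no overlap. Over all 14986 features the same 4-fold rule was met by 16.3% in the higher and 8.63% in the lower direction, and among features not called by 6.84% and 2.53%. In these libraries the higher features held 17.5% to 20.0% of TPM in injected caps, against 1.68% to 1.91% in whole embryos, and the lower features 3.60% to 4.52%, against 22.5% to 24.5%.

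The summed share of the lists overlapped between amounts of injected vegt RNA, while single members differed. Caps given 500 ng of vegt RNA (the unit as labelled) held 17.9% and 19.8% of TPM in the higher features, against 19.0% and 19.1% in caps given 50 ng. Of the 1849 higher features 32 (1.73%) were at least 4-fold higher without overlap at 500 ng than at 50 ng and 40 (2.16%) were lower, where 0.534% and 0.414% of all tested features met this rule. Of the 1191 lower features 3 (0.252%) were higher and 2 (0.168%) lower. With 2 libraries a group no test was made, and this comparison was chosen after the data had been seen.

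The vegetal lineage, with uninjected masses (n = 2) set against 8-cell vegetal blastomeres (n = 3), shares no library with the animal one. Animal and vegetal blastomeres come from the same 8-cell experiment. Caps belong to the RNA injection experiment and masses to the morpholino experiment. By the same rule 1018 of 14745 features (6.9%) were called, 693 (4.7%) of them higher in masses and 325 (2.2%) lower. Of the features higher in the animal lineage 356 were also called higher in the vegetal one, which is 19.3% of the animal list and 51.4% of the vegetal list. Of the lower features 204 were shared, 17.1% of the animal list and 62.8% of the vegetal list. In fitted size, 1409 of the 1480 higher features that were tested in the vegetal lineage were above 0 (95.2%), with a median log2 fold change of 2.72, and 1051 of 1173 lower features were below 0 (89.6%), with a median of -1.46; the median of all features tested there was 0.23. Opposite movement past 4-fold was rare, at 6 of the higher and 5 of the lower features.

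These vegetal counts rest on single libraries. Without vegetal blastomere replicate 3, the library that stands apart, 1697 features were higher and 657 lower in masses, and the shared features became 712 and 344 (38.5% and 28.9% of the animal lists). Without vegetal blastomere replicate 2 there were 314 higher and 61 lower features, of which 173 and 49 were shared. Without mass replicate 2 there were 357 and 117, of which 183 and 93 were shared, and without mass replicate 1 there were 508 and 357, of which 255 and 219 were shared. Without vegetal blastomere replicate 1 edgeR called 0 features, with 3871 of 14316 at an unadjusted p under 0.05, of which 2441 were at least 4-fold higher and 562 at least 4-fold lower. The number of calls in the vegetal lineage is therefore not comparable with that in the animal one.

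In level, the masses stood between caps and 8-cell embryos for both lists. The higher features had a median of 24.8 TPM in caps, 14 TPM in masses and 0.73 and 0.70 TPM in animal and vegetal blastomeres. The lower features had a median of 9.97 TPM in caps, 25.9 TPM in masses and 64.5 and 63.1 TPM in animal and vegetal blastomeres. Of the higher features 53 (2.87%) had no counts in either uninjected mass, and 1529 (82.7%) reached 1 TPM there. Of all features tested 147 (0.981%) had no counts in these masses and 88.5% reached 1 TPM, so the higher features were present there less often than tested features in general. Since the lists were chosen on the caps, caps had to be the more extreme explant on average, and no test was made of this order.

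The test of the difference itself, the change in the animal lineage minus that in the vegetal lineage in 1 fit of all 10 libraries, called 166 of 16343 features (1.02%) at 4-fold or more. In 46 (0.281%) the animal lineage was higher and in 120 (0.734%) it was lower. Caps and masses were from different experiments, so lineage and explant experiment cannot be told apart in this difference. This fit used no replicate numbers. Animal and vegetal blastomeres of the same replicate number deviated together, as did uninjected caps and masses (r = 0.347 over 10873 features). For caps and masses this is a single value, since each group has 2 libraries. A fit with the 8-cell numbers as a block called 81 higher and 191 lower features. With the numbers of all 10 libraries as a block there were 103 and 202. The 46 had medians of 283 TPM in caps and 33.9 TPM in animal blastomeres, beside 25.3 TPM in masses and 34.2 TPM in vegetal blastomeres. By the large-difference rule 34 of them were higher in caps and 3 were lower in masses. The 120 had medians of 5.29 TPM in caps and 33.5 TPM in animal blastomeres, beside 112 TPM in masses and 38.2 TPM in vegetal blastomeres. Of these, 74 were called lower in caps and 37 higher in masses, while 3 were called higher in caps and 2 lower in masses. Over all features tested in each lineage, 12.3% were higher and 7.95% lower in caps, and 4.7% were higher and 2.2% lower in masses. The 46 and the 120 were picked on the same libraries, so calls in the matching direction are partly set by that choice. lncRNA models were 1 of the 46 and 17 of the 120 (14.2%), and 14.7% of the features tested.

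The number of these differences changed with single libraries. Without cap replicate 1 the edgeR fit called 1 higher and 0 lower features (1627 of 18021 at an unadjusted p under 0.05, 650 of them at least 4-fold lower), and without cap replicate 2 it called 1 and 2. Without vegetal blastomere replicate 3 it called 138 and 265. Leaving out another of the animal or vegetal blastomere libraries gave 5 to 13 higher and 35 to 47 lower features, and leaving out mass replicate 2 gave 4 and 20, and mass replicate 1 gave 32 and 69. A feature outside these calls is not thereby shown to have changed alike in both lineages.

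**Figure D5:**
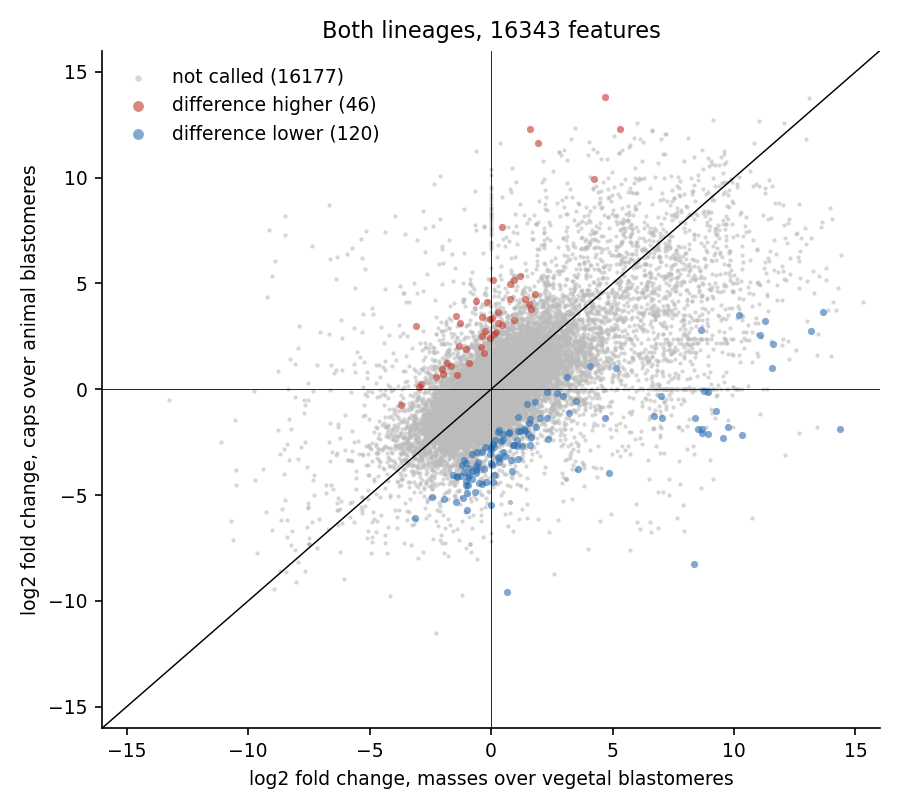
Fitted log2 fold change of 16343 features in the animal lineage (caps over animal blastomeres, vertical axis) and in the vegetal lineage (masses over vegetal blastomeres, horizontal axis), with the line of equality and the 166 features whose difference was called in colour. Of the called features, 46 lie above the line and 120 below it, and 23 and 68 of these had changes of opposite sign.

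The largest called differences with the animal lineage higher were 2 gene models. Xetrov90027470m.g was at 154 and 183 TPM in caps and had no counts in animal blastomeres, while it was at 6.17 and 0.29 TPM in masses and 0.68, 0.89 and 0.64 TPM in vegetal blastomeres. Its rise in the animal lineage was at least 683-fold against the floor of 3 counts, and the fitted difference between the lineages was 10.73 log2 units (SE 1.95, edgeR adjusted p = 0.040), a value that depends on the prior count. This call was lost with the block of 8-cell numbers (adjusted p = 0.062) and in 8 of the 10 fits that left out 1 library (adjusted p up to 0.18). Xetrov90002706m.g was at 190 and 321 TPM in caps and at 0.22, 0 and 0 TPM in animal blastomeres, beside 0.87 and 0.37 TPM in masses and 0.22, 0.11 and 0 TPM in vegetal blastomeres. The difference was 9.70 log2 units (SE 1.69, edgeR adjusted p = 0.027, and 0.020 with the block of 8-cell numbers), and the call was lost in 8 of the 10 fits that left out 1 library (adjusted p up to 0.19).

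Over caps with no otx1 RNA, both features had their lowest mean at the highest amount. Xetrov90002706m.g averaged 256 ± 92.9, 188 ± 79.6, 133 ± 43.1, 93.6 ± 32.8 and 40.3 ± 6.19 TPM at 0, 50, 100, 200 and 500 ng of vegt RNA (SD, n = 2 each). Replicate 2 was above replicate 1 at each amount, from 321 against 190 TPM at 0 ng to 44.7 against 36.0 TPM at 500 ng. The level fell from each amount to the next within both replicates, so the SDs hold an offset between replicates. Xetrov90027470m.g averaged 168 ± 20.3, 131 ± 6.42, 139 ± 9.76, 121 ± 12.7 and 89.2 ± 16.6 TPM at the same amounts. Its replicate 2 was the higher one except at 500 ng (77.4 against 101 TPM). Masses with the Vegt morpholino averaged 20.2 ± 1.99 TPM of Xetrov90002706m.g, against 0.62 ± 0.354 TPM in uninjected masses. Masses with the Otx1 morpholino averaged 0.34 TPM of it, and masses with both morpholinos 1.78 ± 1.76 TPM. For Xetrov90027470m.g the means were 36.6 ± 18.3 TPM in masses with the Vegt morpholino and 6.29 ± 5.89 TPM with the Otx1 morpholino. They were 20.7 ± 14.5 TPM with both and 3.23 ± 4.16 TPM in uninjected masses (SD, n = 2 each). These levels are given as a description, without a test.

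The largest differences with the animal lineage lower were 2 lncRNA models that were high in masses. lncrna_single_sw_00233077 had no counts in caps and was at 4.72, 0 and 6.53 TPM in animal blastomeres, while it was at 909 and 704 TPM in masses and at 0, 2.14 and 3.56 TPM in vegetal blastomeres. lncrna_single_sw_00233079 was at 0.49 and 0 TPM in caps and at 0, 2.16 and 0.15 TPM in animal blastomeres, while it was at 544 and 215 TPM in masses and at most 0.01 TPM in vegetal blastomeres. In caps against animal blastomeres the first was tested and not called (log2 fold change -8.39, SE 2.85, edgeR adjusted p = 0.059). The second had too few counts there to be tested. The differences of -16.63 (SE 2.91, edgeR adjusted p = 0.030) and -16.23 (SE 2.54, adjusted p = 0.026) came with masses far above vegetal blastomeres. Their sizes, and the SEs derived from them, depend on the prior count. Both calls held with the block of 8-cell numbers (adjusted p = 0.041 and 0.013) and were lost with the block over all 10 libraries (0.073 and 0.070). Of the 10 fits that left out 1 library, 8 lost the call of the first (adjusted p up to 0.21) and 7 that of the second (up to 0.16). In caps with 0, 50, 100, 200 and 500 ng of vegt RNA, lncrna_single_sw_00233079 averaged 0.245 ± 0.346, 7.22 ± 1.08, 18 ± 4.02, 37.4 ± 7.32 and 110 ± 16.9 TPM (SD, n = 2 each), in the order of the amounts. The means of lncrna_single_sw_00233077 were 0, 0.43 ± 0.608, 0.025 ± 0.0354, 2.37 ± 3.34 and 8.47 ± 8.39 TPM, not in that order, and the SDs were close to or above the means from 50 ng on.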

How the data were processed

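Per the labels' protocols, polyA RNA was converted by Smart-seq2 and the cDNA tagmented. The authors deposited estimated counts per feature and TPM per feature, made with RSEM 1.2.12 and Bowtie2 2.2.7 per the submitters' processing notes; the genome build is not given in the sources used here. Estimated counts of the separate tables were joined by identifier, rounded and scaled together by TMM. Groups came from GEO titles. Main tests were edgeR 4.0.16 (R 4.3.3) quasi-likelihood fits with filterByExpr, robust dispersion and Benjamini-Hochberg adjustment over all features tested; a floor of 3 counts over a group stood for 0. The SE printed with an edgeR log2 fold change is the size of that change divided by the square root of the test's F statistic. It is not a separate estimate, and where a group has no counts it depends on the prior count. DESeq2 1.42.0 and limma 3.58.1 on log2(TPM + pseudocount) were alternatives. The fits were also run on simulated data without pairing or a difference between experiments, and no result above rests on that run. Deviations of same-numbered animal and vegetal blastomeres from their group means correlated with r = 0.412, 0.429 and 0.392 over 10873 features, so those numbers were taken to pair libraries of the 8-cell experiment, and a fit with them as a block was added after seeing the data. Same-numbered uninjected caps and masses also deviated together (r = 0.347 over 10873 features), though no fit blocked the explant numbers alone. With 2 libraries a group the deviations mirror each other. This r is therefore a single value, -0.347 for unlike numbers, and does not settle whether those numbers pair libraries. Named features were, per direction, the called one with the greatest mean TPM and the one with the greatest fold change at 10 TPM or more, and for the difference between lineages the 2 greatest differences. The libraries, lists and tests were chosen with earlier results of these data known. Gene lists by symbol could not be read, no sequences are given, and peak lists were not used. P-values set a difference between groups against the spread between replicates, which may be partly technical. That spread holds no variation between experiments. Floors cover counting error only, since reads carry no molecular identifiers.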

Additional observations from a re-analysis of the deposited data

Results flagged for a closer look

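Each of the following results rests on a tested difference between the animal and the vegetal lineage, from the interaction of lineage and stage in the edgeR fit of 10 libraries. In this difference, lineage cannot be told apart from the experiment that gave the caps or the masses.
The animal lineage was higher in 46 and lower in 120 of 16343 features. For single features the difference was 10.73 log2 units for Xetrov90027470m.g, 9.70 for Xetrov90002706m.g, -16.63 for lncrna_single_sw_00233077 and -16.23 for lncrna_single_sw_00233079. Each of these 4 had libraries at or near 0 counts in a group, so the sizes depend on the prior count. Leaving out 1 library ended the call of Xetrov90027470m.g in 8 of 10 cases (adjusted p 0.031 to 0.18), of Xetrov90002706m.g in 8 (0.018 to 0.19), of lncrna_single_sw_00233077 in 8 (0.028 to 0.21) and of lncrna_single_sw_00233079 in 7 (0.026 to 0.16). Each was called without vegetal blastomere replicate 3 and lost without either cap. Groups of 2 or 3 libraries were not screened feature by feature for an outlying value.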

How the results depend on the processing

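Over 14 other settings the animal lineage had 1257 to 2708 higher features, within 1.5 times of 1849, and 12 of the 14 counts of lower features were also within 1.5 times of 1191; a minimum of 8-fold gave 463 lower features and of 2-fold 2209. Scaling by size factors gave 1938 higher and 1108 lower features, library totals 1949 and 1064, DESeq2 1986 and 1220, and no filter 2091 and 1228. Of the 1849 higher features, 1849 were called with size factors and 1788 with DESeq2; of the 1191 lower ones, 1108 and 1118. Leaving out 1 library gave 1156 to 1951 higher and 921 to 1306 lower features. In 11 other fits and in 5 without 1 library, the 4 features named for caps kept direction and an adjusted p under 0.05. At a minimum of 8-fold, Xetrov90001544m.g (log2 fold change 2.13) and Xetrov90016336m.g (-2.69) were not called. With lists from size factors the higher features held 20.3% of TPM in caps and 1.93% in blastomeres, the longer list being the construction of that setting, and 85.9% and 85.6% of the lists passed 4-fold in the libraries not used.

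In the vegetal lineage library totals gave 216 lower features, and leaving out 1 library gave 0 to 1697 higher and 0 to 657 lower, with 0 to 712 and 0 to 344 shared with the animal lists. For the difference between lineages library totals gave 23 higher features, no filter 280 higher and 352 lower, and leaving out 1 library 1 to 138 higher and 0 to 265 lower.

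Replicate numbers were shared between groups of separate experiments. Same-numbered caps and animal blastomeres did not deviate together (r = -0.172 and -0.139 over 11070 features), nor did masses and vegetal blastomeres (r = -0.020 and -0.048 over 10873 features). With 2 caps and 2 masses the deviations within each of these groups mirror each other. These values therefore do not settle whether the numbers pair libraries. Same-numbered uninjected caps and masses did deviate together (r = 0.347), though with 2 libraries a group this is a single value. A replicate block gave 1285 higher and 1046 lower features in the animal lineage (of which 1187 and 961 were called without it), 1290 and 620 in the vegetal lineage, and 103 and 202 for the difference between lineages, or 81 and 191 with the block on the 8-cell libraries alone. Among lncRNA models the block gave 163 higher and 34 lower, and the adjusted p of the differences of lncrna_single_sw_00233077 and lncrna_single_sw_00233079 became 0.073 and 0.070. The settings for lncRNA counts, for shared features and for the libraries not used were chosen after seeing the data.

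Where a count moved with a library, a scaling or a filter, the cause was not tested. Absence in blastomeres means fewer than the floor of 3 counts over a total of 47798810, and both caps together limit every call.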
